A study of Mus musculus with 12 samples.

Results

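The subunits of the mitochondrial respiratory chain and of ATP synthase were described as 1 group of 83 protein-coding genes among the 22711 genes of the table. They were chosen by symbol: Nduf genes of the A, B, C, S and V series (complex I, 37 genes), Sdha to Sdhd (complex II, 4), Uqcr genes (complex III, 8), Cox4 to Cox8 genes with a letter (complex IV, 16) and Atp5 genes (complex V, 18). RNA came from mice carrying RIP-rtTA and TetO-VEGF-A, in which the rat insulin promoter drives a doxycycline (Dox) dependent activator in beta cells and Dox switches on VEGF-A. There were 3 libraries each of CD11b+ macrophages and CD31+ endothelial cells sorted from islets, whole islets after 1 week of Dox (Dox islets) and whole islets without Dox (No Dox islets). All 4 groups carried both transgenes, and the 2 kinds of sorted cell came from dispersed islets of mice given Dox for 1 week, so neither has a counterpart without Dox. The sources used here state neither age nor sex nor whether mice were pooled, and the p-values below measure only the spread between these libraries, which may be technical.

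Complexes I and II pass electrons from NADH and succinate to ubiquinone, complex III passes them on to cytochrome c, and complex IV, cytochrome c oxidase, passes them to oxygen. Complex V, ATP synthase, uses the proton gradient that complexes I, III and IV build. Most subunits are made from nuclear genes that nearly every cell uses, but several complex IV subunits have paralogs used in muscle, testis, lung or at low oxygen. In beta cells, ATP made by this chain closes a potassium channel and so couples glucose to insulin release. The symbol rule also took genes that are not core subunits: Atp5s (coupling factor B), Atp5sl, Atp5l-ps1 (named as a pseudogene), Cox7a2l (a supercomplex factor) and Ndufa4, whose protein is known from complex IV. It left out Cox4i1, Cox4i2, Ndufab1, Cyc1 and Usmg5, which encode subunits of the same complexes and are given separately. The 13 subunits encoded by mitochondrial DNA were not analysed here.

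Values are the authors' normalized signal, on a linear scale with a floor of 1. Summed signal ran from 17626506 to 25218786 per library, and 25.3 to 35.4% of genes lay at the floor. The number of reads is unknown, so no counting interval is given. The sorted cells carried their labelled markers: all 10 macrophage markers were higher in macrophages than in endothelial cells, and all 10 endothelial markers were lower. Traces of beta cell RNA were not even between the sorted cells, at 0.0130 to 0.0306% of the signal in macrophages and 0.00225 to 0.00287% in endothelial cells. RNA of the exocrine pancreas was uneven, with 11 acinar markers at 1.84 and 0.519% of the signal in replicate 2 of macrophages and of endothelial cells, and at 0.00136 to 0.127% in the other sorted libraries. Replicate 1 of Dox islets and replicate 2 of No Dox islets stood apart from the other islet libraries by base composition: over all tested genes with a known GC content, Spearman correlations of a library's deviation with GC were 0.59 and 0.66 there and -0.35 to -0.47 in the other 4.

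Summed over its genes, the chain took up shares of the signal that overlapped between the groups. The 83 genes made up 0.233 to 0.338% of the signal in macrophages, 0.246 to 0.329% in endothelial cells, 0.277 to 0.379% in Dox islets and 0.221 to 0.387% in No Dox islets. These ranges overlap in every pairing of groups. Complex V alone gave 0.110 to 0.151% in macrophages, 0.112 to 0.163% in endothelial cells, 0.130 to 0.195% in Dox islets and 0.0923 to 0.189% in No Dox islets. Complex II was the exception among the complexes. Endothelial cells, at 0.0264 to 0.0315%, lay below macrophages (0.0321 to 0.0418%), Dox islets (0.0374 to 0.0454%) and No Dox islets (0.0327 to 0.0621%). These shares were not tested. For 55 of the 83 genes the 4 group means lay within 1 unit of log2(signal + 1) of each other, and for 4 genes, Cox6a2, Ndufa4l2, Cox6b2 and Atp5s, they spanned more than 2.

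**Figure D1:**
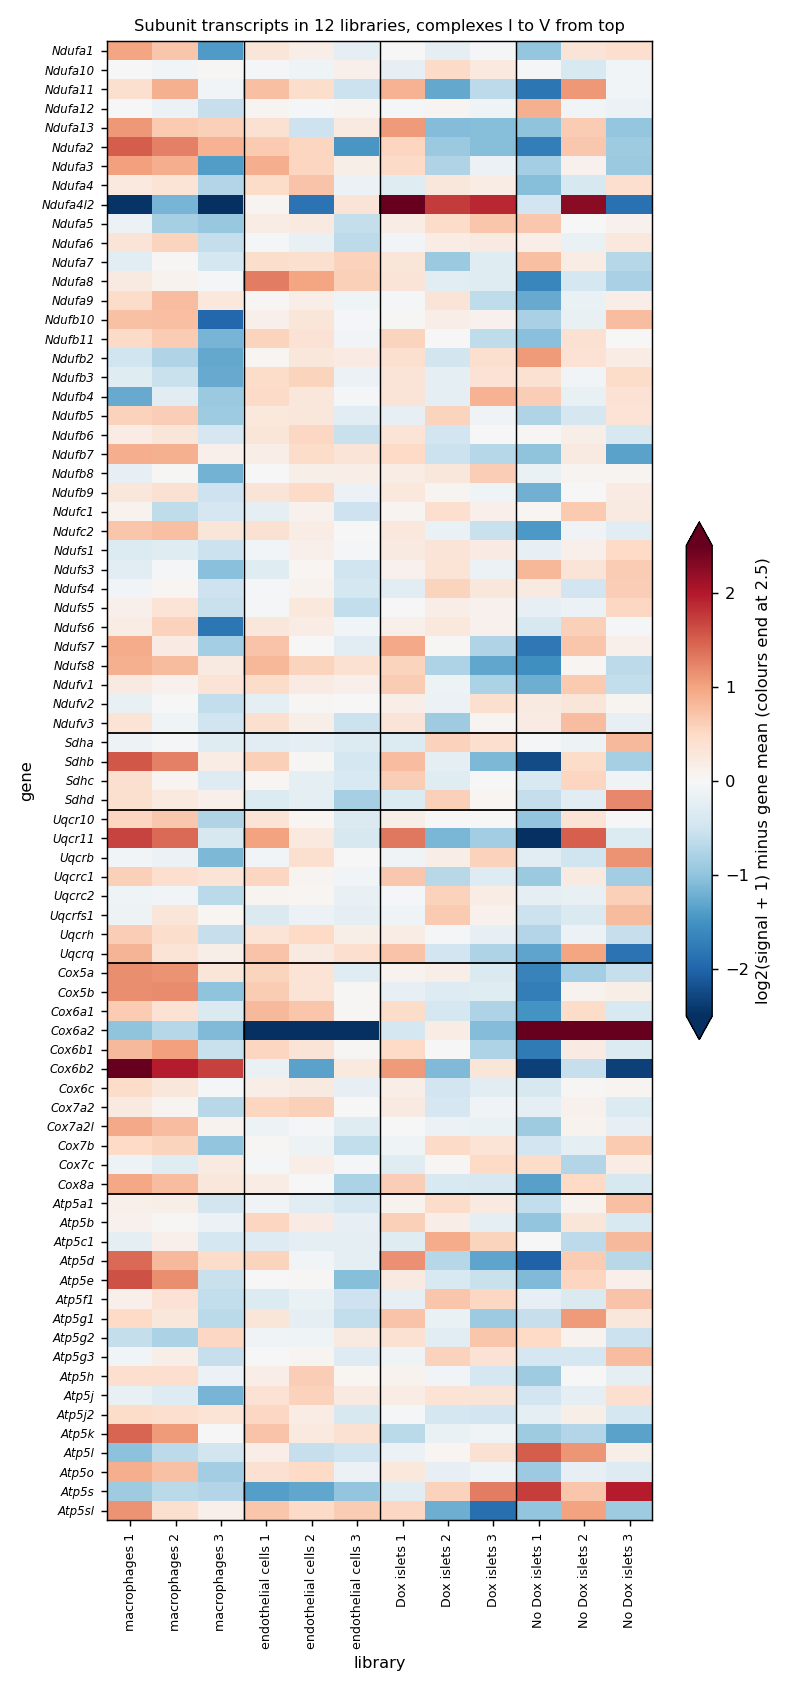
Log2(signal + 1) of 77 of the 78 subunit genes that passed the filter in any comparison, minus its mean over the 12 libraries, with complexes I to V from top to bottom and 1 column per library. Cox6a2 is high in the 3 No Dox islet libraries alone, Ndufa4l2 is highest in Dox islets, and Cox6b2 is highest in macrophages.

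The first comparison asks what 1 week of Dox did to the chain in whole islets. Of 76 subunit genes that passed a filter on low values (signal of at least 15.5 in at least 3 of the 6 libraries), 0 were higher and 1 was lower in Dox islets by limma at an adjusted p of 0.05. Over all 14443 genes tested, 4.33% were higher and 1.41% lower. At an unadjusted p under 0.05 the count was 2 of 76, Cox6a2 and Ndufa4l2. The median log2 difference was 0.19 over the 76, against 0.11 over all genes tested. By complex it was 0.12 for complex I, 0.04 for II, 0.34 for III, 0.23 for IV and 0.24 for V, and 74 of the 76 lay within 1 unit of log2. The median standard error was 0.45, and at such a spread a difference of 1 unit of log2 in a single subunit did not pass the threshold. Without replicate 1 of No Dox islets the median turned to -0.05.

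**Figure D2:**
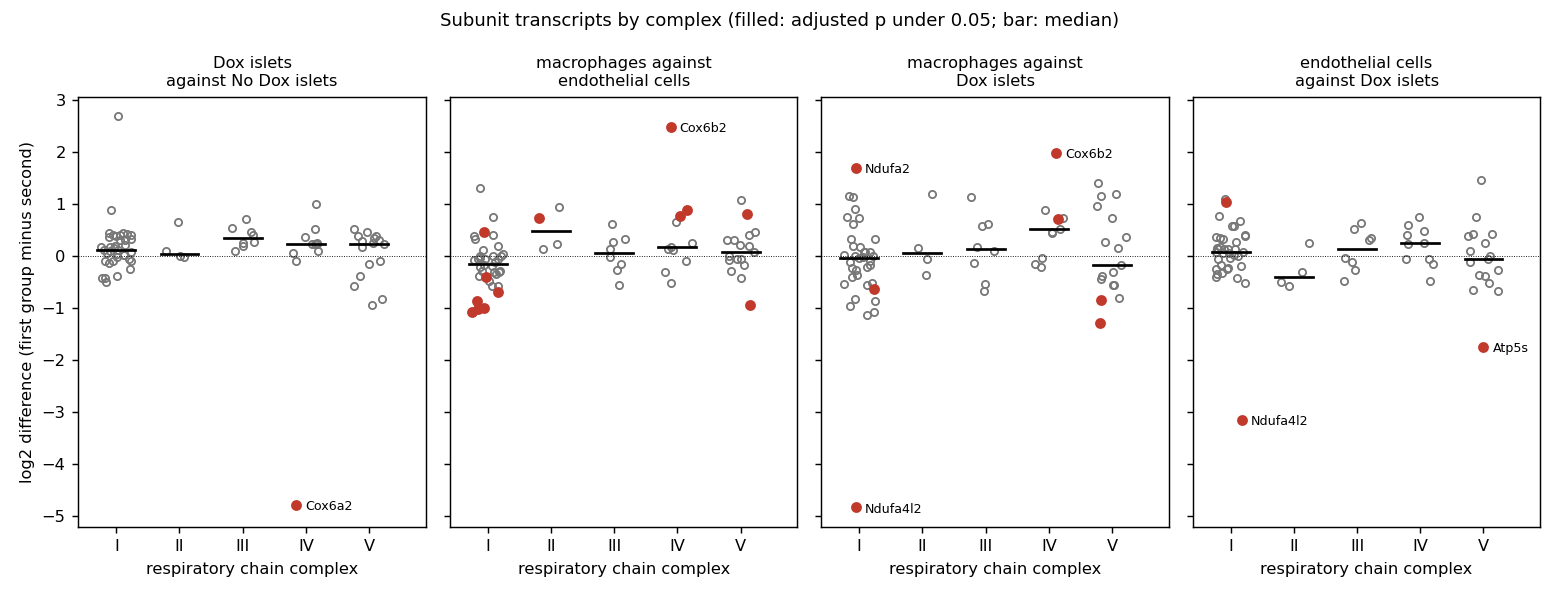
Log2 difference of each tested subunit gene in the 4 comparisons, first group minus second, split by complex; filled points passed an adjusted p of 0.05 and bars are medians. Nearly all points of Dox islets against No Dox islets lie between -1 and 1, with Cox6a2 at -4.78 the exception that passed.

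The gene that fell was Cox6a2, the isoform of subunit VIa of cytochrome c oxidase known from heart and skeletal muscle. Its signal was 10.2, 16.2 and 6.14 in Dox islets, against 204, 358 and 386 in No Dox islets. Every Dox library lay more than 10 times below the lowest No Dox library. The log2 difference was -4.78 (SE 0.60, 95% interval -6.13 to -3.43), with limma's adjusted p = 0.00990, the largest fall of all 14443 genes tested. Cox6a2 passed the filter through the No Dox libraries, as replicate 2 alone of the Dox libraries reached 15.5. With such Dox values it could scarcely have been called higher. Macrophages had 6.54, 8.25 and 6.05, and the 3 endothelial libraries were listed at the floor. Without replicate 2 of Dox islets the adjusted p was 0.0512 and with no filter on low values 0.0555, at log2 differences of -5.09 and -4.78. In whole islets, less RNA per cell and fewer of the cells that hold it cannot be told apart. Beta cell markers moved the same way: 6 of 10 were lower in Dox islets, and the 10 together made 0.837 to 0.902% of the signal, against 1.83 to 3.02% in No Dox islets. Their 10 log2 differences ran from -2.40 to -1.05, and their part in the fall of Cox6a2 was not tested.

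Cox6a2 lies on chromosome 7 from 135348950 to 135349880 on the minus strand (mm9). Itgad, which encodes an integrin alpha chain of leukocytes, is listed from 135297890 to 135367330 on the plus strand and so spans it. Itgad had the second largest fall of the islets, a log2 difference of -4.55 (SE 0.61, adjusted p = 0.0119 by limma), with 30.0, 72.4 and 16.4 in Dox islets, against 1387, 606 and 607 in No Dox islets. By GENCODE M1 (also mm9), exons of the pair share 66 bases, from 135348950 to 135349015, which is 10% of the exon bases of Cox6a2. No source used here says whether counting used strand, so reads of the pair cannot be told apart in those bases. The last exon base of Itgad in GENCODE M1 is 135349015, short of its listed end of 135367330. Which exons were counted for the listed gene is therefore unknown, and its overlap with Cox6a2 may be larger. With no filter on low values Itgad did not pass either (adjusted p = 0.0797). It was named after its values were seen.

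The widely expressed paralog, Cox6a1, gave no such difference. It had 816, 436 and 344 in Dox islets, against 208, 806 and 451 in No Dox islets, and the groups overlap. Its log2 difference was 0.23 (SE 0.53, 95% interval -0.96 to 1.42, adjusted p = 0.880 by limma). The log2 ratio of Cox6a2 to Cox6a1, which cancels the scaling of a library, was -6.18, -4.66 and -5.60 in Dox islets, against -0.03, -1.17 and -0.23 in No Dox islets, a difference of -5.01. The exact permutation test gave its smallest possible p for 3 against 3, 0.1 (two-sided), or 0.283 adjusted over the 17 ratios tested. The coding sequences of the paralogs are 62.5% identical over 288 aligned bases, with no identical run longer than 12. Their most alike 90 coding bases are shown here to make the distance visible, with the 19 mismatched bases in capitals (bases 189 to 278 of Cox6a2 and 234 to 323 of Cox6a1, 5′ to 3′, GENCODE M1).
Cox6a2: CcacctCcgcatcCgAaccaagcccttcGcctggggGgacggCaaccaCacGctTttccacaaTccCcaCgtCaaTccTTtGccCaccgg
Cox6a1: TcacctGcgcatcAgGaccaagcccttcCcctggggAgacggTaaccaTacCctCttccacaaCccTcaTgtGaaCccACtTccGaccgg

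Of the paralogs linked to low oxygen, neither passed the threshold in islets. Ndufa4l2 encodes a relative of Ndufa4 that is induced when oxygen is low. Its signal was 299, 47.7 and 52.7 in Dox islets, against 9.46, 68.4 and 2.99 in No Dox islets, so a single No Dox library lay inside the Dox range. The log2 difference was 2.69 (SE 1.11, adjusted p = 0.199 by limma), and without that library, replicate 2 of No Dox islets, it was 3.83 (adjusted p = 0.0436). Cox4i2, the isoform of subunit IV known from lung and outside the symbol rule, had 145, 70.6 and 52.0 in Dox islets, against 12.7, 36.9 and 6.79 in No Dox islets. Here the groups do not overlap, as in 2270 of all 14443 genes tested that were higher. The log2 difference was 2.37 (SE 0.78, adjusted p = 0.110 by limma), which passed with the GC trend of the libraries removed (adjusted p = 0.0360). Markers of mural cells, the pericytes and smooth muscle of vessels, moved in the same direction: 5 of 7 were higher in Dox islets, and together they made 1.03 to 1.67% of the signal there, against 0.270 to 0.569% in No Dox islets. Endothelial markers made 0.452 to 0.577% in Dox islets and 0.184 to 0.257% in No Dox islets. The part of these cells in the values of Ndufa4l2 and Cox4i2 was not tested.

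Ndufa4l2 is listed on chromosome 10 from 126951995 to 126954208. Its broadly expressed counterpart Ndufa4 had 339, 506 and 475 in Dox islets, against 199, 314 and 556 in No Dox islets, a log2 difference of 0.41 (SE 0.44, adjusted p = 0.702 by limma). These paralogs are closer to each other than Cox6a2 is to Cox6a1, with 70.5% identity and an identical run of 28 bases, which lies in the stretch shown (bases 121 to 210 and 106 to 195 of the coding sequences, 17 mismatches in capitals).
Ndufa4l2: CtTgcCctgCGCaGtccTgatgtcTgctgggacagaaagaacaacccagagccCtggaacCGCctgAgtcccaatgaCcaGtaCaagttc
Ndufa4: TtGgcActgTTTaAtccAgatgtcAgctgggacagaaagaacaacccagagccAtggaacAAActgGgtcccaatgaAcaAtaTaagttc

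**Figure D3:**
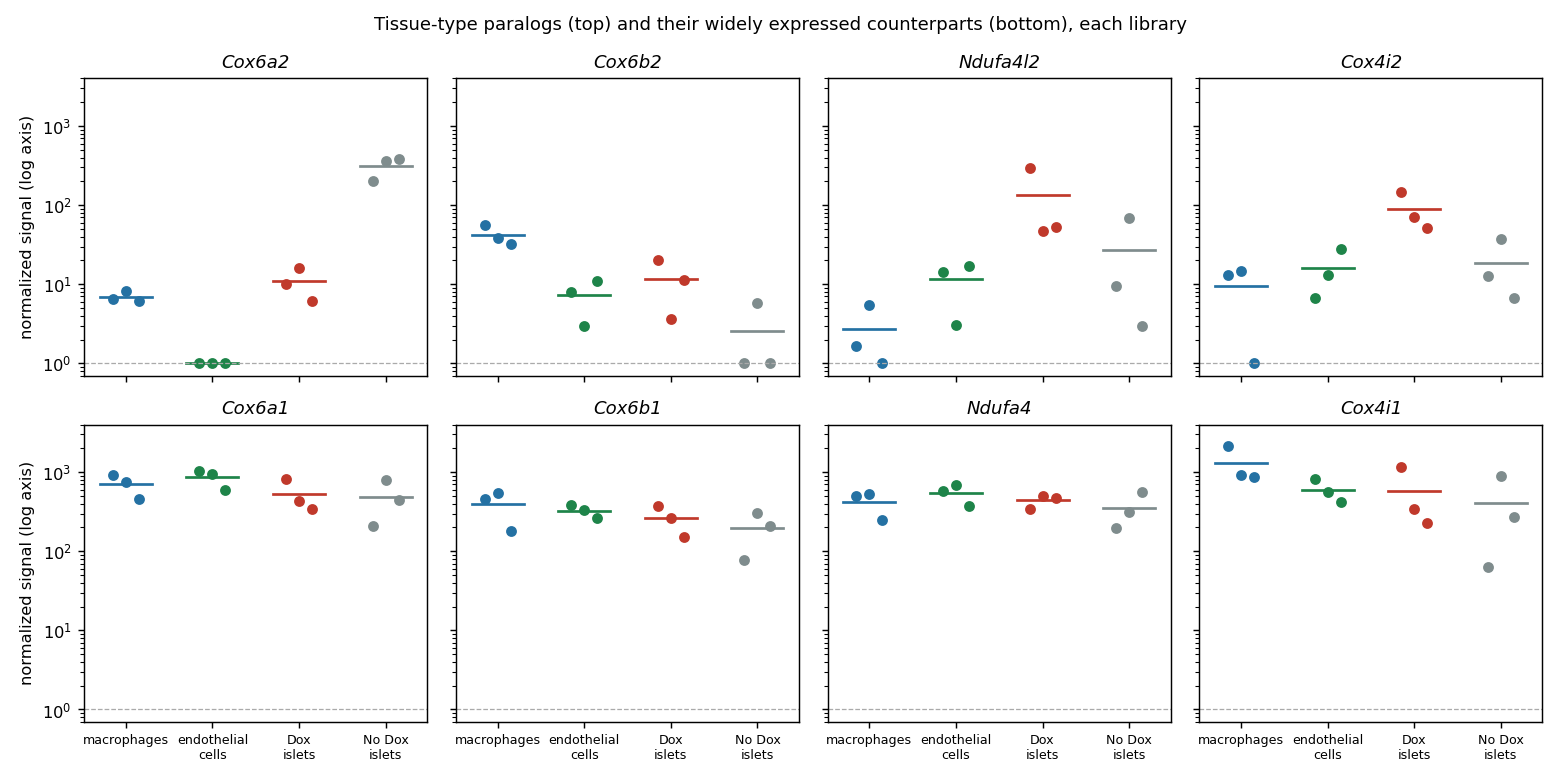
Normalized signal (log axis, dashed line at the floor of 1) in each of the 12 libraries for 4 paralogs of restricted expression (top) and their widely expressed counterparts (bottom); short bars are means of 3 libraries. Cox6a2 stands at 204 to 386 in No Dox islets and at 16.2 or less in every other library, while the lower genes lie between 63.5 (Cox4i1, No Dox islets) and 2129 (Cox4i1, macrophages).

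The catalytic and other core subunits did not pass in islets, and their values show how wide the islet libraries spread. Atp5b, the catalytic beta subunit of ATP synthase, had 23063, 17190 and 12855 in Dox islets, against 7757, 18855 and 11769 in No Dox islets (log2 difference 0.52, SE 0.40, adjusted p = 0.549 by limma). Cox5a, a nuclear-encoded subunit of cytochrome c oxidase, had 285, 301 and 209 in Dox islets, against 83.6, 149 and 179 in No Dox islets. The Cox5a groups do not overlap, and its log2 difference was 1.00 (SE 0.46, adjusted p = 0.251 by limma). Higher without overlap were 3 of the 76 members and 2270 of all 14443 genes tested. Core subunits of complex I lay closer to 0, with log2 differences of 0.11 for Ndufs1 and 0.30 for Ndufv1. Those of complex III were 0.41 for Uqcrc1 and 0.26 for Uqcrfs1, and that of Atp5c1, the gamma subunit of ATP synthase, was 0.34.

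The catalytic subunits of complex II varied against each other from library to library. Sdha, the flavoprotein, had 4176, 7934 and 7093 in Dox islets, against 5212, 4833 and 9375 in No Dox islets, a log2 difference of -0.00 (SE 0.37). Sdhb, the iron-sulfur subunit, had 605, 295 and 161 in Dox islets, against 74.3, 487 and 197 in No Dox islets, a difference of 0.66 (SE 0.71). Sdhb was thus highest, and Sdha lowest, in replicate 1 of Dox islets and replicate 2 of No Dox islets, the libraries that stand apart by GC. The exons of Sdhb hold 54.9% GC and those of Sdha 48.5%. The same held across the chain: the 39 tested members with more than the members' median GC of 51.5% deviated from their group mean by a median of 0.59 in replicate 1 of Dox islets and 0.65 in replicate 2 of No Dox islets, against -0.04 and -0.01 for the 39 others. Uqcr11, a small complex III subunit with 58.9% GC, ran from 17.7 to 102 in Dox islets and from 1.58 to 115 in No Dox islets. With the GC trend removed 0 subunits were called higher and 1 lower, as without that step, and leaving out both libraries gave the same counts.

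Some libraries were low for the chain as a whole. In replicate 3 of macrophages the 76 subunit genes lay a median of 0.41 units of log2 under their group means, and 6 of 76 were above them. The ribosomal genes were low there too, with medians of -0.62 for cytosolic and -0.50 for mitochondrial ribosomal proteins, while all genes tested were at -0.02. Replicate 1 of No Dox islets was low as well, with a median of -0.44 and 16 of 76 above. The median exon length was 861 bases over the 83 genes, against 2319 over all genes. Over all tested genes the deviation of the low libraries correlated with exon length. Spearman's rho was 0.28 in replicate 3 of macrophages and 0.22 in each of the other low libraries. The part of length or of the library number in the low values was not tested.

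**Figure D4:**
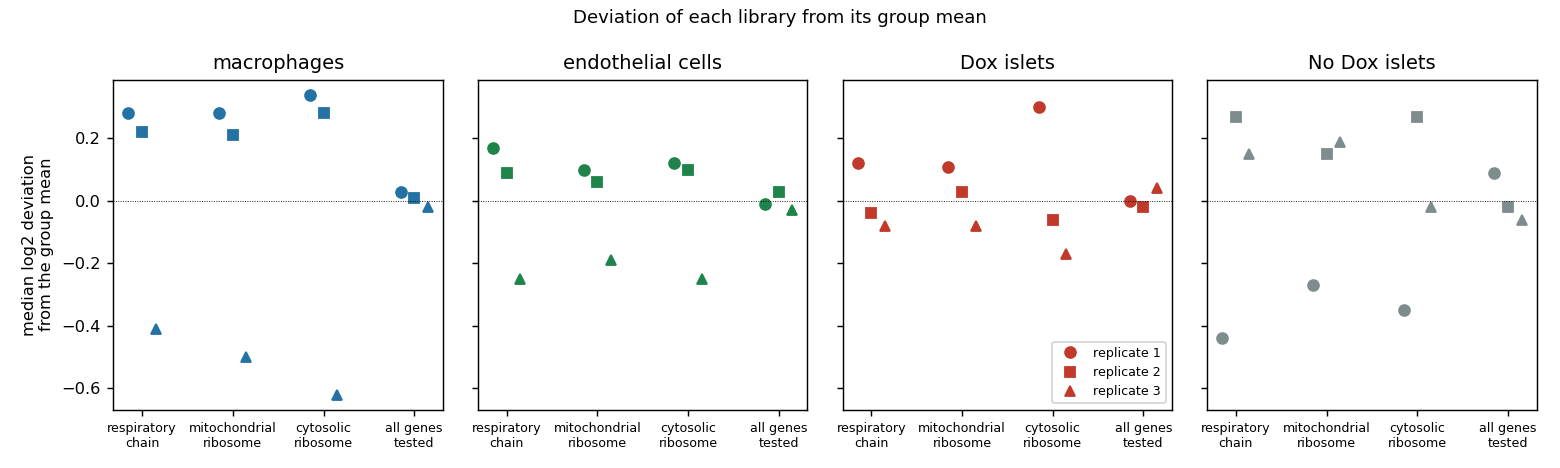
Median deviation (log2) of each library from the mean of its group, for the respiratory chain genes, mitochondrial and cytosolic ribosomal proteins and all genes tested; circles, squares and triangles are replicates 1, 2 and 3. Replicate 3 of macrophages (-0.41) and replicate 1 of No Dox islets (-0.44) are low for the respiratory chain, and all genes tested stay between -0.06 and 0.09.

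Between the sorted cell types, the chain differed in single subunits in both directions. In macrophages 6 of 76 subunits were higher and 7 lower than in endothelial cells by limma without pairing of libraries. Over all 13726 genes tested, 27.7% were higher and 31.5% lower. With same-numbered libraries paired, as described below, the subunit counts were 12 and 7, against 29.5 and 33.7% of all genes. The median log2 difference was -0.00, against -0.10 over all genes. Without pairing, the higher genes were Cox6b2, Cox8a, Atp5d, Cox7a2l, Sdhd and Ndufa9, and the lower ones Ndufb4, Ndufb2, Ndufb3, Atp5j, Ndufa8, Ndufa7 and Ndufs1. All 3 calls in complex IV, of 11 genes tested, were higher in macrophages, while 6 of the 7 calls in complex I, of 36 tested, were lower. Of these, Cox6b2 passed the filter only through the macrophage libraries, so it could not have been called lower. The split by complex did not hold with a block for the replicate number. The block gave 4 higher and 5 lower in complex I and 4 higher and 1 lower in complex IV. Over all complexes, rescaling libraries by the median ratio gave 9 higher and 5 lower subunits.

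Libraries of macrophages and endothelial cells with the same number deviated together, and a block for the number gave 12 higher and 7 lower, against 29.5% and 33.7% of all genes. Where the block is not named, values of this comparison are from the fit without it. With the block Ndufb4 was no longer called (adjusted p = 0.0539), and Sdhb (log2 difference 0.94, adjusted p = 0.00393), Atp5e (1.08, 0.00873), Cox5a (0.66, 0.0157), Ndufa2 (1.30, 0.0220), Ndufa13 (0.75, 0.0342) and Ndufc2 (0.40, 0.0392) were called higher and Cox7a2 (-0.51, 0.0387) lower. Leaving out replicate 3 of macrophages gave 21 higher and 6 lower. Without replicate 1 or 2 of macrophages 1 was higher, with 5 or 7 lower. Without replicate 1, 2 or 3 of endothelial cells the counts were 6 and 4, 3 and 4, and 2 and 5. Of the 13 calls, 5 held without each of the 6 libraries in turn, those of Atp5j, Ndufa7, Ndufa8, Ndufb2 and Sdhd. With the 4 groups fitted together, Ndufa7, Ndufa8 and Sdhd did not pass (limma's adjusted p = 0.166, 0.0553 and 0.156). Atp5j did not pass with no filter on low values (0.0743).

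Cox6b2 had the largest difference between the sorted cells. It encodes the subunit VIb isoform of cytochrome c oxidase known from testis, and lies on chromosome 7 from 4703396 to 4704696 (mm9). Its signal was 56.9, 38.3 and 32.0 in macrophages, against 7.97, 2.97 and 10.9 in endothelial cells. All 3 macrophage libraries lay above every other library of the study, since Dox islets had 20.0, 3.64 and 11.4 and No Dox islets at most 5.71. The log2 difference was 2.49 (SE 0.53, adjusted p = 0.00431 by limma). Without any single macrophage library the gene failed the filter and was not tested. Cox6b1, the widely expressed paralog, had 464, 539 and 178 in macrophages, against 384, 330 and 267 in endothelial cells, with a log2 difference of 0.13 (SE 0.41). The log2 ratio of Cox6b2 to Cox6b1 was 2.36 higher in macrophages (exact two-sided p = 0.1, adjusted 0.283). The coding sequences are 62.5% identical, and their closest 90 bases differ at 22 positions, in capitals here (bases 43 to 132 and 37 to 126).
Cox6b2: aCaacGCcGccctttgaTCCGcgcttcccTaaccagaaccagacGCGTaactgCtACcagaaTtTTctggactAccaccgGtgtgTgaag
Cox6b1: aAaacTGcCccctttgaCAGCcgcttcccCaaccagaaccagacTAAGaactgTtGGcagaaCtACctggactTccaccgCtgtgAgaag

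Among the other members higher in macrophages, Cox7a2l, a factor of respiratory supercomplexes, had 2332, 2076 and 1294 in macrophages, against 1103, 1162 and 977 in endothelial cells. The log2 difference was 0.77 (SE 0.22, adjusted p = 0.0159 by limma). Sdhd, which anchors complex II in the membrane, had 2239, 1997 and 1856 in macrophages, against 1335, 1434 and 952 in endothelial cells, with a difference of 0.73 (SE 0.17, adjusted p = 0.00701). In neither gene do the groups overlap. Higher without overlap were 9 of the 76 members and 4212 of all 13726 genes tested. Cox8a was higher by 0.88, Atp5d, the delta subunit of ATP synthase, by 0.81 and Ndufa9, an accessory subunit of complex I, by 0.47. In the fit without the block for the replicate number, these 3 lost the call without 4 or 5 of the 6 libraries in turn, and Cox7a2l without 3. With the block, limma's adjusted p was 0.00336 for Cox8a, 0.00169 for Atp5d, 0.0119 for Ndufa9 and 0.00385 for Cox7a2l.

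The members lower in macrophages were mostly accessory subunits of complex I. Ndufb2 had 284, 239 and 166 in macrophages, against 417, 490 and 467 in endothelial cells, a log2 difference of -1.02 (SE 0.25, adjusted p = 0.00768 by limma). Ndufa8 had 418, 382 and 344 in macrophages, against 868, 712 and 543 in endothelial cells, with -0.87 (SE 0.21, adjusted p = 0.00789). Atp5j, coupling factor 6 of ATP synthase, had 1091, 993 and 554 in macrophages, against 1600, 1856 and 1450 in endothelial cells, with -0.95 (SE 0.25, adjusted p = 0.0128). In each of the 3 all macrophage libraries were below all endothelial ones, as in 7 of the 76 members and 4918 of all 13726 genes tested. Ndufs1, the largest iron-sulfur subunit of complex I, was lower by a smaller step, with -0.40 (SE 0.13, adjusted p = 0.0297), and lost the call without replicate 1 of macrophages or any endothelial library. The remaining 3 were Ndufb4 (-1.07), Ndufb3 (-1.0) and Ndufa7 (-0.70).

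Some of these genes share exon bases with neighbours, which matters where strand was not used. Atp5j shares 397 bases, 12.7% of its exon bases, with Gabpa on the opposite strand. Gabpa, a subunit of the GABP factor that acts on promoters of respiratory genes, had 3208, 3385 and 3010 in macrophages, against 5294, 5912 and 5932 in endothelial cells, and was lower too, with -0.83 (SE 0.10, adjusted p = 0.000121 by limma). Ndufb2 shares 146 bases with Braf and 145 with Adck2. In all, 16 of the 83 members share exon bases with another gene, 14 of them with a gene on the opposite strand. Among members that share no exon bases in GENCODE M1, Ndufa8, Ndufa7 and Sdhd kept their calls without each library, but not with the 4 groups fitted together.

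Outside the symbol rule, Ndufab1, the acyl carrier protein of complex I, showed a larger fall than any complex I member tested in this comparison. It had 237, 247 and 99.8 in macrophages, against 500, 453 and 511 in endothelial cells, a log2 difference of -1.43 (SE 0.36, adjusted p = 0.00919 by limma, or 0.0511 with no filter on low values). Cox4i1, the widely expressed subunit IV, was higher in macrophages by 1.05 (SE 0.38, adjusted p = 0.0443), a call lost without replicate 1 of macrophages or replicate 2 or 3 of endothelial cells. It was also lost with no filter (limma's adjusted p = 0.181), no variance trend (0.0839), the 4 groups fitted together (0.327) or the library number range as a term (0.0574). With the block for the replicate number it was 0.00152. Cyc1 and Usmg5 did not pass, at -0.17 and 0.43.

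Against Dox islets, the tissue they came from, macrophages had 3 higher and 4 lower subunits of 77 tested, while 21.3% of all 14479 genes were higher and 31.4% lower. The median log2 difference was 0.01, against -0.20 over all genes. The count rests on single libraries: without replicate 1 of Dox islets it was 15 higher and 8 lower, without replicate 2 it was 0 and 1, and without replicate 3 it was 0 and 0. Leaving out replicate 1, 2 or 3 of macrophages gave 0 and 2, 0 and 2, and 8 and 2, and 0 of the 7 calls held without each library. Quantile normalization, which moved the median over all genes to 0.12, gave 15 higher and 2 lower with a median of 0.39, and median ratio rescaling gave 6 higher and 3 lower.

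Ndufa4l2 was the member with the largest difference. Its signal in macrophages was 1.64, 5.5 and 1.00, at or near the floor, against the 299, 47.7 and 52.7 of Dox islets. The log2 difference was -4.83 (SE 0.84, adjusted p = 0.00107 by limma). Without any 1 Dox library the gene failed the filter. Cox4i2 differed in the same direction, with 12.9, 14.5 and 1.00 in macrophages. Its log2 difference was -3.44 (SE 0.87, adjusted p = 0.00839 by limma, or 0.0649 with no filter on low values). Both genes passed the filter only through the Dox islet libraries, so neither could have been called higher in macrophages. All 7 mural markers were lower in macrophages than in Dox islets as well, at 0.0172 to 0.0631% of the signal, and their part in both differences was not tested.

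Cox6b2 was higher in macrophages than in Dox islets by 1.99 (SE 0.68, adjusted p = 0.0356 by limma) and Cox7a2l by 0.71 (SE 0.25, adjusted p = 0.0401). Ndufa2, an accessory subunit of complex I, had 313, 263 and 199 in macrophages, against 158, 57.1 and 51.6 in Dox islets, a difference of 1.70 (SE 0.52, adjusted p = 0.0224). Atp5s had 187, 217 and 207 in macrophages, against 287, 519 and 838 in Dox islets (-1.29, SE 0.42, adjusted p = 0.0268). Atp5j (-0.85) and Ndufs1 (-0.64) were lower in macrophages than in both of the other cell sources of Dox mice, 2 comparisons that share the macrophage libraries. Ndufab1 was lower here too, with -1.61 (SE 0.42, adjusted p = 0.0105).

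Endothelial cells set against Dox islets had 1 higher and 2 lower subunits of 76, against 11.5% higher and 21.6% lower of all 14218 genes. The median log2 difference was 0.07, against 0.00 over all genes. The Dox islet libraries are the same as in the comparisons above, so the results are not independent of them. Without replicate 1 of Dox islets the counts were 13 and 11, and leaving out another library gave 0 or 1 higher and 1 or 2 lower. Quantile normalization moved the median over all genes to 0.29 and gave 11 higher and 2 lower, with a median of 0.49 over the members.

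Ndufa8 was the member that was higher, at 868, 712 and 543 in endothelial cells, against 446, 297 and 289 in Dox islets (1.04, SE 0.28, adjusted p = 0.0200 by limma). It lost the call without replicate 2 or 3 of Dox islets or replicate 1 or 2 of endothelial cells. Atp5s had 132, 140 and 174 in endothelial cells, against 287, 519 and 838 in Dox islets, a difference of -1.75 (SE 0.40, adjusted p = 0.00934), which held without each library. It did not pass with no filter (limma's adjusted p = 0.0555) or with quantile normalization (0.0546). With the library number range as a term the difference was -1.07 (0.0778). In No Dox islets Atp5s had 1154, 557 and 1360, so both kinds of islet lay above both kinds of sorted cell in every library. Ndufa4l2 had 14.3, 3.01 and 17.2 in endothelial cells, a difference of -3.15 (SE 0.85, adjusted p = 0.0214) that did not pass without replicate 3 of Dox islets (0.0592) or replicate 2 of endothelial cells (0.0689). With quantile normalization its adjusted p was 0.148 and with no filter 0.120. Cox4i2 had a log2 difference of -2.49 (SE 0.62, adjusted p = 0.0145), and was not past the threshold without replicate 2 of Dox islets (0.0506) or replicate 1 of endothelial cells (0.0555). Nor did it pass with no filter (limma's adjusted p = 0.0798), with quantile normalization (-1.01, 0.168) or with the 4 groups fitted together (0.0517). Mural markers were lower as well, 7 of 7, at 0.0718 to 0.280% of the signal in endothelial cells, and their part was again not tested.

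Several muscle and testis paralogs were scarcely detected anywhere. In islets 7 members failed the filter: Atp5k, Atp5l-ps1, Cox6b2, Cox7a1, Cox7b2, Cox8b and Cox8c. Cox8c was at the floor in all 12 libraries, Cox7b2 reached 1.42 in a single No Dox library and Cox8b did not exceed 9.07. Cox7a1, the muscle form of subunit VIIa, reached 17.2 in macrophages, 10.8 in endothelial cells, 6.97 in Dox islets and 18.7 in No Dox islets. Cox7a2 and Cox8a, the widely expressed counterparts, had 307 to 480 and 315 to 631 in Dox islets, and 325 to 447 and 160 to 587 in No Dox islets. The c ring of ATP synthase is encoded by Atp5g1, Atp5g2 and Atp5g3, which give the same mature protein, and neither ratio, Atp5g1 or Atp5g2 to Atp5g3, gave an exact p under 0.300 in any comparison.

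The genes around the chain were read from the same fits. In islets 0 of 27 assembly factors, 0 of 14 regulators of mitochondrial biogenesis, 0 of 13 enzymes of the TCA cycle and 0 of 10 carriers and channels passed, in a comparison where 5.74% of all genes did, so that counts near 0 are no result about these lists. Of 21 glycolytic genes 1 passed, Ldha, the lactate dehydrogenase of anaerobic glycolysis, with 4687, 4228 and 2432 in Dox islets, against 643, 949 and 788 in No Dox islets (log2 difference 2.21, SE 0.34, adjusted p = 0.0124 by limma). Ldha did not pass without replicate 2 of Dox islets.

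The regulators of biogenesis were called at shares near those of all genes, 7 of 14 in macrophages against endothelial cells, where 59.1% of all genes were called in either direction. Ppargc1a, the coactivator PGC-1alpha that drives mitochondrial biogenesis, had 8.62, 44.3 and 37.1 in macrophages and 10, 12.1 and 24.0 in endothelial cells, against 133, 383 and 492 in Dox islets. The log2 differences were -3.53 (SE 0.74, adjusted p = 0.00321 by limma) and -4.26 (SE 0.58, adjusted p = 0.000613). In No Dox islets it had 1664, 651 and 603, all above Dox islets, without passing the threshold (Dox minus No Dox -1.56, adjusted p = 0.142). Ppargc1b, its relative PGC-1beta, had 351, 229 and 355 in macrophages, against 6.76, 15.7 and 34.0 in endothelial cells, a difference of 4.21 (SE 0.56, adjusted p = 0.000291). Esrra, a nuclear receptor that works with these coactivators, was higher in macrophages by 1.92 (SE 0.27, adjusted p = 0.000434). Of 14 regulators, 3 were higher and 4 lower in macrophages than in endothelial cells, with Tfam (-0.65), Tfb2m (-1.19), Yy1 (-0.80) and Gabpa the lower ones. The counts were 3 higher and 4 lower in macrophages against Dox islets, where 52.7% of all genes were called, and 2 and 2 in endothelial cells against Dox islets, where 33.1% were.

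Carriers parted by gene as well. Ucp2, an uncoupling protein of the inner membrane, had 33135, 22619 and 29420 in macrophages, against 5240, 3877 and 3734 in endothelial cells (2.73, SE 0.18, adjusted p = 4.14e-06 by limma). Slc25a4, the muscle-type ADP/ATP carrier, had 1328, 1641 and 1465 in macrophages, against 2007, 2272 and 2054 in endothelial cells, with -0.52 (SE 0.12, adjusted p = 0.00651). Of 21 glycolytic genes 9 were higher and 2 lower in macrophages, and of 80 cytosolic ribosomal proteins 23 were higher and 4 lower, against 27.7 and 31.5% of all genes (29.5 and 33.7% with the block). The block for the replicate number gave 11 and 4 for glycolysis, 34 and 4 for these ribosomal proteins and, of 75 mitochondrial ribosomal proteins, 7 higher and 8 lower in place of 1 and 5. Without replicate 3 of macrophages the cytosolic ribosomal counts were 53 and 4 and the mitochondrial ones 12 and 7. In assembly factors 1 was higher, Cox17, a copper chaperone of complex IV, by 1.23, and 3 of 27 were lower, and in the TCA cycle 1 was higher and 3 of 13 lower. Of the assembly factors 14.8% were thus called and of the mitochondrial ribosomal proteins 8.00%, against 59.1% of all genes.

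Promoters were available for 66 of the 83 members, from 250 bases before to 50 after the start in RefSeq (GRCm38.p6), 71 promoters in all. Motifs of factors known to act on respiratory genes were searched on both strands. NRF1's GCGCATGCG was in 11.3% of member promoters and 1.75% of all 32851 promoters. A shorter NRF1 motif, TGCGCA, which the longer one does not contain, was in 25.4 and 7.76%. The ETS motif CCGGAAG, which GABP can bind, was in 22.5 and 8.86%, YY1's AAGATGGCG in 9.86 and 1.40% (its core AAGATGG, contained in it, in 14.1 and 6.34%), and the ERR motif TCAAGGTCA in 2.82 and 0.423%. A match is a description of the letters and not a bound site. The promoters of Cox6b2, which differed between sorted cells, and of Cox6b1 and Cox6a1, which did not, are shown with the matches in capitals, on the strand of each gene. Cox6b2 (chr7:4753045-4753344) holds none of the motifs, Cox6b1 (chr7:30626065-30626364) holds the ETS motif, and Cox6a1 (chr5:115348909-115349208) holds the ETS motif and both NRF1 motifs.
Cox6b2 promoter: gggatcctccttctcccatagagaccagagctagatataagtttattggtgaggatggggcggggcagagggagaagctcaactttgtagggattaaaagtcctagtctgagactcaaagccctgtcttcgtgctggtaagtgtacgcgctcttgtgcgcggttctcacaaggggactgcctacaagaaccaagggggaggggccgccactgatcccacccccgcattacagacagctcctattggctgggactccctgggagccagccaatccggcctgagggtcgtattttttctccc
Cox6b1 promoter: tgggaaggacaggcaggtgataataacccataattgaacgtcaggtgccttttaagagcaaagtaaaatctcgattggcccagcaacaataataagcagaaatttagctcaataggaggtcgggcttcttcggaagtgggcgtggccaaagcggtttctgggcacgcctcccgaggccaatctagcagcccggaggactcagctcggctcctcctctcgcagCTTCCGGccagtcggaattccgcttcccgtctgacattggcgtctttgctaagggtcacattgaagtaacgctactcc
Cox6a1 promoter: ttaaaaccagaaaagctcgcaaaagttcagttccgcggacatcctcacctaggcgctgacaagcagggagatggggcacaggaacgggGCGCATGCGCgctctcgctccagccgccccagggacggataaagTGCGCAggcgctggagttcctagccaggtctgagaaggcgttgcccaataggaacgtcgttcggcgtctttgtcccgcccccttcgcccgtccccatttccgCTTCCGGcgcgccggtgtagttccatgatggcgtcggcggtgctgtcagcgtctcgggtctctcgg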

How the data were processed

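RNA from whole islets and sorted islet cells was amplified with a NuGEN kit and sequenced on a HiSeq2500, per the labels' protocols. The deposited signal had been normalized by the authors in a way that no source used here describes. The submitters' processing notes list TopHat2 2.0 and mm9 with no roles, and neither the counting program nor the use of strand is stated. Whole reads could not be recovered from the values, so no count model was used and depth is unknown.

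The table held 22793 genes. The 25 symbols stored as dates were restored by ID, and of repeated symbols the gene of highest mean was kept, leaving 22711. Log2(signal + 1) was fitted with limma 3.58.1 in R 4.3.3 (variance trend, the 6 libraries of a comparison), after a filter of at least 15.5, the 40th percentile, in at least 3 libraries. P-values were adjusted by Benjamini-Hochberg over all genes tested, two-sided. The test was run on simulated data with independent noise and changes larger than most reported here. Deviations shared by genes or libraries, and small differences, were not covered by that check. A fold change on this scale understates the change of low genes. Alternatives were another pseudocount (16), no filter or a stricter one (217.5), no variance trend, quantile or median ratio scaling, GC trend removal, a joint fit of the 4 groups, a replicate block and leaving out each library. Coding sequences were aligned with Biopython 1.88.

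Members and gene lists were chosen with earlier results of these data known. The text names, in each comparison, up to 6 of the largest rises and falls among called members, 10 core subunits and a set of paralogs. A further core subunit is counted among the members and is not reported here. Itgad, Atp5s, Ndufa8, Atp5e, Ndufa2, Ndufa13, Ndufc2, Uqcr11, Cox6b1, Ndufab1 and genes of the pathway lists were named after their values were seen.

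To see whether replicate numbers pair libraries, each library's deviations from its group mean were correlated over genes. Same-numbered libraries gave 0.23, 0.41 and 0.36 between macrophages and endothelial cells, so the number was taken to pair them. The labels do not state why. In the other comparisons at least 1 pair was under 0.1.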

Additional observations from a re-analysis of the deposited data

How the results depend on the processing

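In Dox against No Dox islets (0 higher, 1 lower) the lower count was 0 with no filter and with the stricter filter, under which Cox6a2 was not tested, and 0 to 1 when single libraries were left out, and the higher count was also 0 to 1. Without replicate 2 of No Dox islets, Ndufa4l2 was the member called higher. For macrophages against endothelial cells (6 higher, 7 lower) the higher count was 3 with no filter, 3 with no variance trend, 2 with the 4 groups fitted together, 12 with the replicate block, 17 with the library number range as a term (an alternative chosen after seeing the data) and 1 to 21 without single libraries, and the lower count was 4 with no filter, 3 with the 4 groups together and 4 to 7 without single libraries. For macrophages against Dox islets (3 higher, 4 lower) the higher count was 1 with no filter or the stricter filter, 15 with quantile normalization, 6 with median ratio rescaling or the GC trend removed, 9 with the replicate block, 1 with the number range and 0 to 15 without single libraries. Its lower count was 2 with no filter or quantile normalization, 8 with the 4 groups together and 0 to 8 without single libraries, and its median was 0.39 with quantile normalization. For endothelial cells against Dox islets (1 higher, 2 lower) the higher count was 0 with no filter, 11 with quantile normalization, 4 with the block and 0 to 13 without single libraries. Its lower count was 1 with no filter, the stricter filter or the number range, 4 with the GC trend removed and 1 to 11 without single libraries, and its median was 0.49 with quantile normalization. In both comparisons with Dox islets, and between the islets, not every same-numbered pair deviated together, so the number was not taken to pair them, although same-numbered islet libraries carry consecutive library numbers in the table's header, whose meaning is not stated.

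The log2 differences that changed sign were of genes not called. In Dox against No Dox islets, Ndufs1 (0.11) was -0.01 with quantile normalization and -0.00 with median ratio rescaling, Cox7a2 (0.06) was -0.06 and -0.05, and Sdha (-0.00) was 0.02 with the GC trend removed and 0.10 without the pair of libraries that stand apart by GC. Leaving out single libraries gave -0.06 to 0.28 for Ndufs1, -0.10 to 0.22 for Cox7a2, -0.18 to 0.30 for Sdha, -0.11 to 0.83 for Ndufv1, -0.02 to 1.33 for Sdhb, -0.39 to 0.56 for Cox5b, -0.28 to 0.69 for Cox6a1, -0.11 to 0.83 for Cox8a, -0.12 to 1.78 for Cox4i1, -0.01 to 0.72 for Atp5c1, -0.80 to 0.02 for Atp5g1 and -0.03 to 0.53 for Atp5g2. In macrophages against endothelial cells, Ndufv1 was 0.04 and Atp5g3 0.00 with median ratio rescaling, and Atp5g3 0.01 with the number range. Single libraries gave -0.11 to 0.06 for Ndufv1, -0.23 to 0.13 for Atp5g3, -0.25 to 0.84 for Cox5b, -0.01 to 0.57 for Atp5g1 and -0.07 to 0.21 for Atp5c1. In macrophages against Dox islets, quantile normalization gave 0.06 for Uqcrfs1, 0.27 for Cox7a2, 0.21 for Ndufa4 and 0.11 for Atp5g2, median ratio rescaling 0.08 for Cox7a2 and 0.00 for Ndufa4, GC removal 0.10 for Cox7a2, 0.13 for Ndufa4 and -0.01 for Ndufv1, and the number range -0.23 for Atp5g1. Single libraries gave -0.30 to 0.07 for Uqcrfs1, -0.21 to 0.25 for Cox7a2, -0.30 to 0.24 for Ndufa4, -0.03 to 0.68 for Ndufv1, -0.23 to 0.58 for Atp5g1 and -0.39 to 0.04 for Atp5b. In endothelial cells against Dox islets, quantile normalization gave -0.21 for Atp5b, 0.14 for Cox8a, 0.62 for Atp5g1 and 0.48 for Atp5g2, GC removal -0.03 for Atp5b, 0.09 for Atp5g1 and -0.06 for Uqcrc1, and the number range -0.23 for Atp5b, -0.37 for Uqcrc1, -0.30 for Ndufv1, 0.09 for Sdha, -0.46 for Sdhb, 0.03 for Atp5c1, 0.14 for Atp5g3 and -0.77 for Cox4i1. Single libraries gave -0.20 to 0.22 for Atp5b, -0.34 to 0.18 for Cox8a, -0.45 to 0.36 for Atp5g1, -0.20 to 0.75 for Sdhb and -0.13 to 1.03 for Cox4i1. The ratio of Atp5g1 to Atp5g3 was -0.13 to 0.92 there, and that of Atp5g2 to Atp5g3 was -0.74 to 0.37 in Dox against No Dox islets, -0.83 to 0.19 in macrophages against endothelial cells, -0.72 to 0.30 in macrophages against Dox islets and -0.32 to 0.36 in endothelial cells against Dox islets. The causes were not tested. With 3 libraries a group, unknown depth and no record of the normalization, a small shared shift of all respiratory genes cannot be told apart from scaling.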
